A study of Patiria miniata with 16 samples.

Results

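Nicotinic acetylcholine receptors, GABA receptors and glycine receptors belong to the family of ligand-gated channels in which several subunits surround an ion pore. The genes described here are the 61 of 27818 genes in the bat sea star Patiria miniata whose annotated product name is a subunit of such a channel. They were chosen by the words of the product name and by no measured value, but the group was put together with results of these libraries known, so its counts under treatment are a description. By name, 47 are nicotinic acetylcholine receptor subunits, 10 are glycine receptor subunits and 4 are GABA receptor subunits. No gene was named a glutamate-gated chloride channel or a serotonin type 3 receptor. Of the 61, 58 carry a Pfam domain of the family, and only 1 other gene of the table does (LOC119740634, a pseudogene with no product name). Most names end in "-like": they were transferred by similarity, and alpha or beta in a name does not give the ligand or the partners of a sea star subunit.

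Binding of the transmitter opens the pore within the receptor itself. In vertebrates nicotinic receptors pass cations and excite muscle fibres and neurons, while GABA type A and glycine receptors pass chloride and usually inhibit. In nicotinic receptors of animals, alpha subunits carry the adjacent pair of cysteines of the binding site, and non-alpha subunits complete the pentamer. The sea star larva has neurons near its ciliary bands and muscle around its gut opening, and echinoderm muscle contracts in response to acetylcholine.

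The study raised wild type embryos in sea water in the presence or absence of BAPN (beta-aminopropionitrile), which blocks lysyl oxidases, enzymes of collagen cross-linking, and sequenced polyA RNA from pools of at least 200 whole embryos. The 16 libraries form 8 groups of 2. Untreated controls were collected on day 2, day 3 and day 4. BAPN was present from hatched blastula to day 2, from gastrula to day 3, from hatched blastula to day 4 or from gastrula to day 4. A recovery group had BAPN from hatched blastula to day 2 and then none until day 4. Within each treated group, 1 library received 1.2 mM and 1 library 0.8 mM of BAPN, and the spread within a treated group also holds any effect of dose. The labels name a control library for each treated library of the first 3 groups, while gastrula to day 4 and recovery share the day 4 controls with blastula to day 4. Whether the 2 libraries of a group are separate cultures is not given by the labels, and a p-value here is a measure of library-to-library spread only. Totals ran from 9945801 to 14383817 counts.

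Levels are given as CPM, the counts of a gene in 1000000 counts of its library after TMM scaling. Of the 61 genes, 45 passed the filter on low counts: 37 nicotinic, 6 glycine and 2 GABA receptor genes. The other 16 never exceeded 15 counts in a library, and 3 of them had no count anywhere. Of the 45, 14 reached the filter's level in no library collected in BAPN and 1 (LOC119740260) reached it in no control library, so passing the filter already favoured genes that were high in controls. A change is a log2 change with its standard error (SE) from one edgeR quasi-likelihood fit to all 16 libraries. A gene was called when its p, adjusted by Benjamini-Hochberg over the 17519 genes tested, was under 0.05. For a group with no count, the fold is a lower bound against a floor of 3 counts summed over its 2 libraries.

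In untreated embryos the channel genes came on in steps between day 2 and day 4. The summed level of all 61 was 526 and 398 CPM in the day 2 controls, 857 and 882 CPM on day 3, and 1373 and 1461 CPM on day 4. The libraries of the 3 days did not overlap. Of the 61, 23 were counted in both day 2 controls, a further 24 first in both day 3 controls and 8 first in both day 4 controls, while 6 were counted in both libraries of no control group. From day 2 to day 3, 13 of 45 rose and none fell, where 9.86% of all genes rose and 6.55% fell. From day 3 to day 4, 9 rose and none fell, where 7.95% of all genes rose and 5.79% fell. In each of these comparisons 1 of the 45 was lower at an unadjusted p under 0.05, and DESeq2 called 1 lower. Without the day 2 control named for the 0.8 mM library, 7 rose from day 2 to day 3, and without either day 3 control or without the day 4 control named for 1.2 mM, 5 rose from day 3 to day 4. Fitting only the groups compared gave 24 rises and 1 fall from day 3 to day 4, the 9 rises among them. That fit called 3393 of all 17519 genes higher and 2469 lower.

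A few nicotinic genes carried most of this level. Per kb of transcript, the highest mean levels over the 6 controls were 50.3 CPM for LOC119741163, 46.2 CPM for LOC119730552 and 26.0 CPM for LOC119740515. LOC119741163 is named for unc-38, an alpha subunit of the levamisole receptor of body muscle in Caenorhabditis elegans. LOC119730552 is alpha-6-like and LOC119740515 alpha-3-like, names of neuronal subunits in vertebrates. The highest glycine receptor genes were LOC119729759 (beta-like, 5.62 CPM per kb), LOC119746456 (alpha-4-like, 3.37) and LOC119729464 (alpha-2-like, 2.28). Of the 4 GABA receptor genes only LOC119727692 (alpha-6-like, 5.43 CPM per kb) was above 1 CPM per kb, and LOC119729461 (beta-like) and LOC119729370 (alpha-2-like) stood at 0.252 and 0.0557.

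The genes differed in when they appeared. LOC119727692 had 0 counts in both day 2 controls, 186 and 168 on day 3 and 360 and 433 on day 4, and it rose at least 84.6-fold from day 2 to day 3. The alpha-10-like genes LOC119741673 and LOC119741915 also went from no count on day 2 to 53 and 47 and to 46 and 40 counts on day 3, rises of at least 23.9-fold and 20.5-fold. LOC119741915 then rose by a further 3.92 ± 0.51 (SE) to 39.2 and 44.2 CPM on day 4 (edgeR quasi-likelihood adjusted p = 2.16e-05). The beta-3-like LOC119735898, at 2 and 1 counts on day 3, had 73 and 96 on day 4, and its neighbour LOC119735897 (alpha-6-like) had 0 and 4 and then 49 and 77. The calls of these last 2 genes depended on single libraries: leaving out any 1 of the 4 day 3 and day 4 controls ended each of them, and for LOC119735897 so did leaving out any 1 of 4 libraries of other groups. DESeq2 did not call LOC119735897 either. The alpha-10-like LOC119741124 went the other way, from 13.6 and 10.8 CPM on day 2 to 0.573 and 0.857 CPM on day 4.

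**Figure D1:**
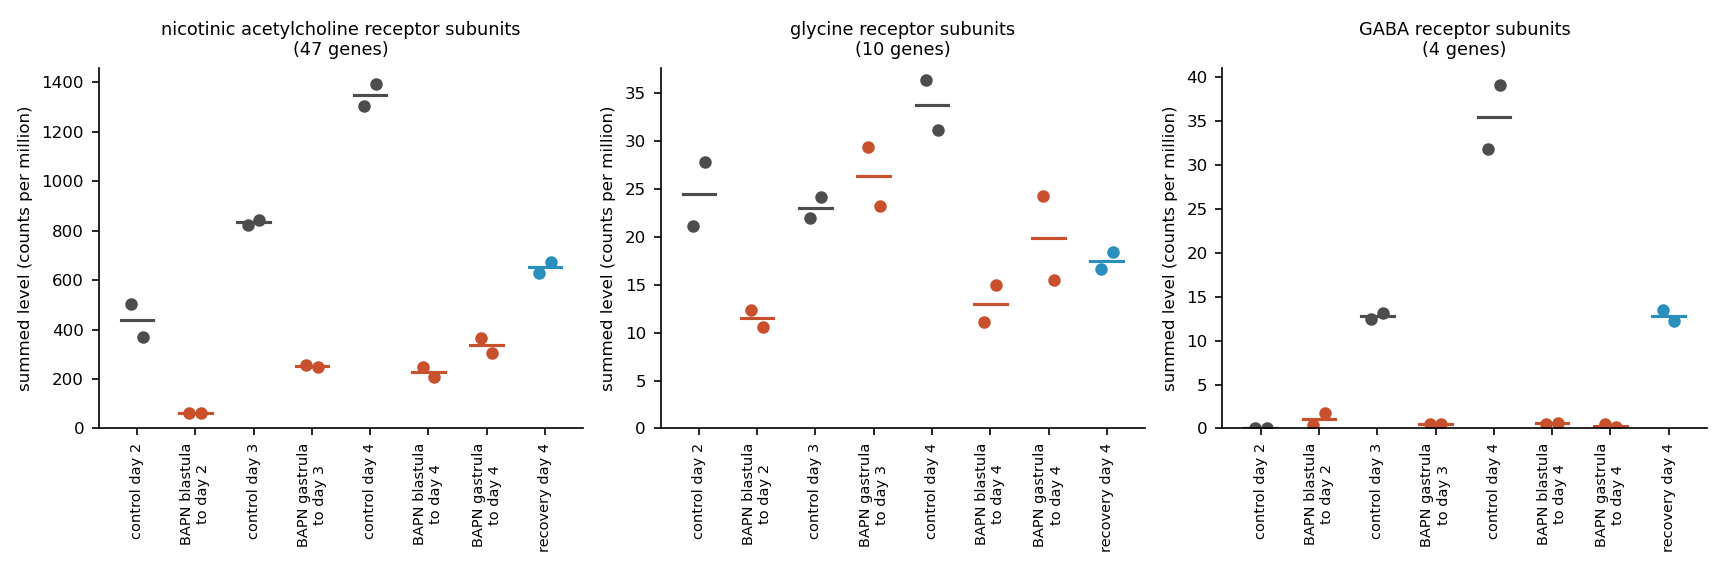
Summed level (CPM) of the genes of each class in each library, with 2 points per group (1 per library) and a bar at their mean. Controls are grey, BAPN groups orange and recovery blue. The nicotinic sum rose in controls from 505 and 370 CPM on day 2 to 1305 and 1391 CPM on day 4 and was below the same-day controls in every library collected in BAPN.

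Embryos collected in BAPN had far less channel RNA. The summed level was 74.6 and 75.5 CPM after BAPN from blastula to day 2, 16.2% of the day 2 controls. It was 286 and 271 CPM after gastrula to day 3 (32.1% of controls), 260 and 222 CPM after blastula to day 4 (17.0%) and 391 and 320 CPM after gastrula to day 4 (25.1%). No treated library reached any control library of its day. In bulk RNA, fewer cells of a type and less RNA per cell cannot be told apart.

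Markers of the cells that could hold these channels also differed between BAPN and controls, in directions and amounts that varied between genes and days. The 17 neuron marker genes summed to 441 to 460 CPM after BAPN from blastula to day 2, above the 302 to 317 CPM of controls, with 5 genes at 0 in each group. ELAV-like protein 1-B LOC119737432 (227 and 222 CPM against 163 and 163 CPM) and SNAP-25-like LOC119744397 (116 and 116 CPM against 36.2 and 41.3 CPM) account for most of that excess. Neuroendocrine convertase 2-like LOC119741510 had 0.937 and 0 CPM against 9.20 and 4.14 CPM. Markers were taken by product name alone, and whether these genes mark only neurons here was not tested. Of 14 tested neuron markers 2 were called higher and 1 lower on day 2, where 21.8% of all genes were higher and 19.7% lower. The 17 neuron markers summed to 416 to 437 CPM after gastrula to day 3 against 458 to 481 CPM, with 5 and 3 genes at 0. They summed to 352 to 356 CPM after blastula to day 4 and 417 to 444 CPM after gastrula to day 4 against 811 to 851 CPM, with 5, 5 and 2 genes at 0. For the mean effect, where 28.1% of all genes were higher and 30.1% lower, 1 of the 14 was higher and 6 were lower. The 28 muscle marker genes summed to 1898 to 1968 CPM against 2608 to 2808 CPM on day 2, with 5 and 6 genes at 0, and to 1854 to 2141 CPM against 3592 to 3620 CPM on day 3, with 4 and 0 at 0. They summed to 1826 to 1880 CPM after blastula to day 4 and 1882 to 1912 CPM after gastrula to day 4 against 4566 to 4746 CPM, with 6, 3 and 1 at 0. Single muscle genes differed after blastula to day 4. Striated myosin heavy chain-like LOC119735028 had 2.32 and 6.11 CPM there against 857 and 1066 CPM in controls. Tropomyosin-like LOC119745877 had 574 and 614 CPM against 1890 and 1928 CPM, and titin homolog LOC119741455 had 177 and 112 CPM against 105 and 100 CPM. Of 25 tested muscle markers 3 were higher and 13 lower for the mean effect. Cilia markers were lower for 23 of 26 genes and higher for 1. Gut markers were lower for 8 and higher for 5 of 26 tested, and immune mesenchyme markers lower for 9 and higher for 12 of 36. By window, 2 gut markers were lower after blastula to day 2 and 4 after gastrula to day 3, with 4 and 3 higher. On day 4, 12 were lower after the blastula start and 13 after the gastrula start, with 3 and 1 higher. Of all genes, 19.7%, 15.1%, 27.3% and 24.2% were lower in these windows, and 21.8%, 17.1%, 24.4% and 21.9% higher. The part of the markers in the channel result was not tested.

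**Figure D2:**
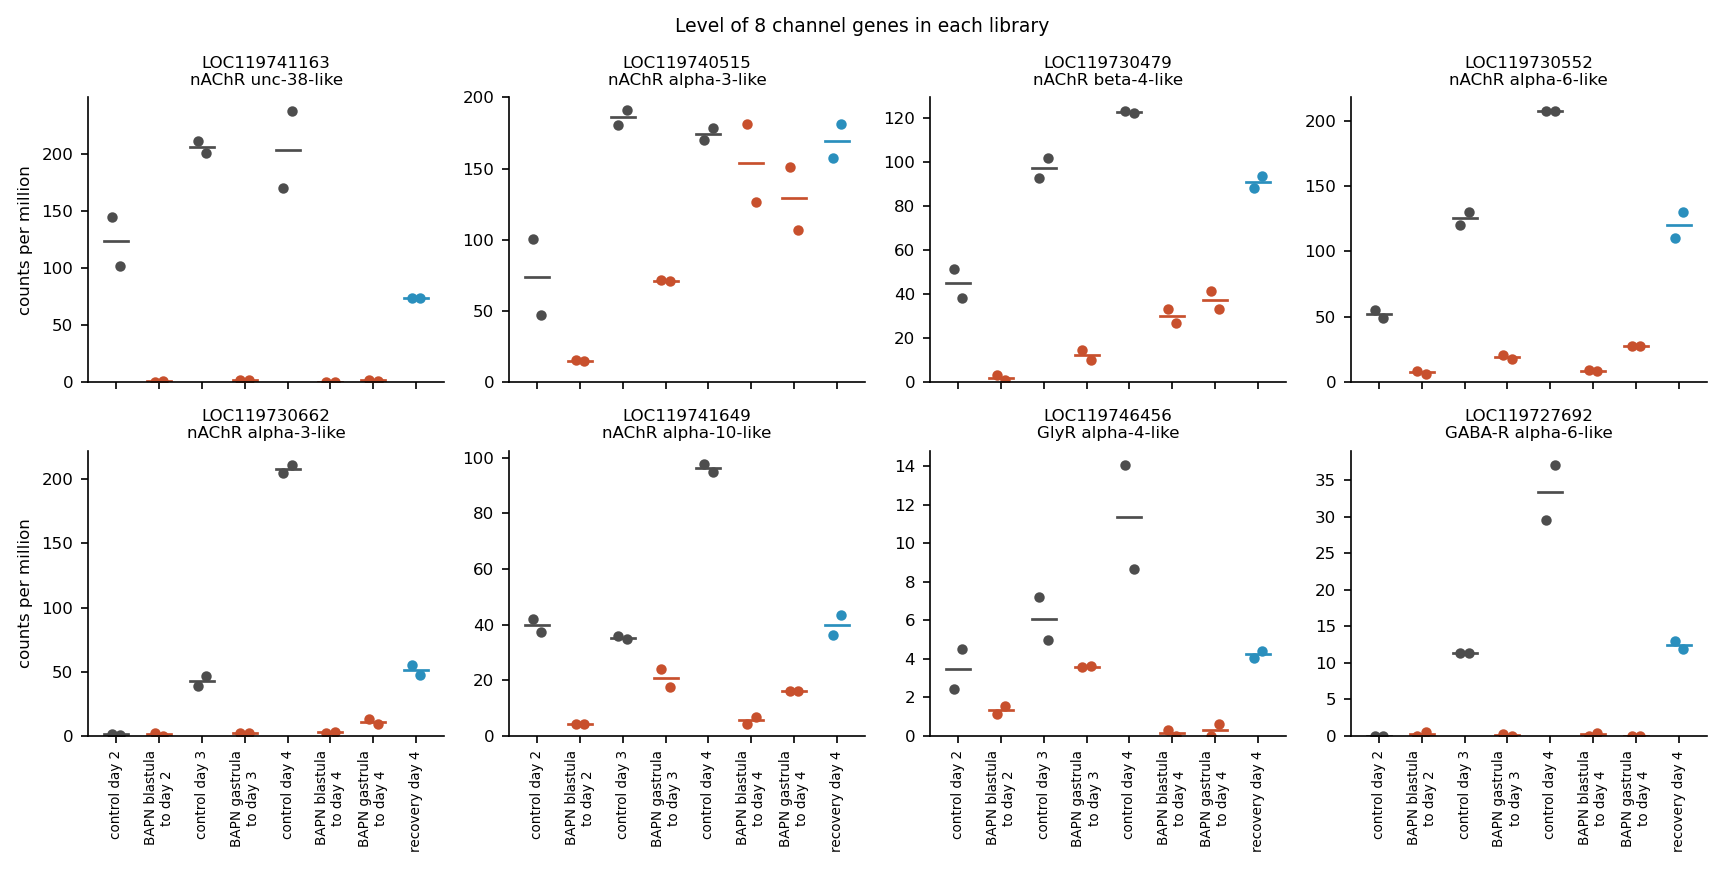
Level (CPM, with a linear axis for each gene) of 8 channel genes in each library, with 2 points per group and a bar at their mean. Controls are grey, BAPN groups orange and recovery blue. LOC119741163 was at 2.17 CPM or less in all 8 libraries collected in BAPN, while LOC119740515 reached 181 CPM after BAPN from blastula to day 4.

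Averaged over the 3 windows with controls of their own, 26 of the 45 genes were lower and 1 was higher. Among all genes 30.1% were lower and 28.1% higher. Of the 26, 10 were lower in 6 of 6 named pairs, 11 in 5 and 5 in 4. The median change of the 45 was -2.70, or -2.01 with groups at 0 held at the floor, where the median of all genes was -0.07. Lower calls fell on 20 of 31 tested alpha-named nicotinic genes, 4 of 6 beta-named ones and 2 of 6 glycine receptor genes. The mean could not be estimated for 11 of the 18 genes not called, both tested GABA receptor genes among them, because a group without counts left a standard error above 5. Only some of these 11 genes are described by window.

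LOC119741163, the unc-38-like gene, was almost absent wherever BAPN was present. It had 5 and 6 counts after BAPN from blastula to day 2 against 1716 and 1076 in controls, a change of -7.89 ± 0.30 (edgeR quasi-likelihood adjusted p = 3.08e-14). After gastrula to day 3 it had 21 and 26 counts against 3465 and 2982, a change of -6.71 ± 0.25 (adjusted p = 2.69e-14). After blastula to day 4 it had no count in either library, against 2071 and 2768 in controls, and was at least 1394-fold lower. After gastrula to day 4 it had 17 and 15 counts, a change of -7.18 ± 0.26 (adjusted p = 1.71e-14). Every library collected in BAPN was below every control library. The gene lies on scaffold NW_024037072.1 of Pmin_3.0, bases 36894615 to 36904998, on the minus strand.

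LOC119730552, alpha-6-like, fell in every window without being lost. It stood at 8.43 and 6.38 CPM against 55.1 and 49.1 CPM on day 2, at 21.0 and 17.3 CPM against 120 and 130 CPM on day 3, and at 8.98 and 8.46 CPM against 207 and 208 CPM after blastula to day 4. Its mean change was -3.36 ± 0.10 (edgeR quasi-likelihood adjusted p = 2.11e-17), lower in 6 of 6 pairs. The alpha-10-like LOC119741649 changed by -2.70 ± 0.13 (adjusted p = 1.14e-13), lower in 6 of 6 pairs. Its smallest fall was after gastrula to day 3, at 24.0 and 17.5 CPM against 35.7 and 34.6 CPM (-0.76 ± 0.21), and this call was lost without the 0.8 mM library of that group. LOC119743173, another alpha-10-like gene, ranged from 0 to 1.07 CPM in the 6 paired treated libraries and from 4.22 to 24.7 CPM in the 6 controls (-4.41 ± 0.44, adjusted p = 3.41e-08). In vertebrates alpha-9 and alpha-10 subunits are best known from hair cells.

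LOC119730662, alpha-3-like, stayed far below controls in BAPN on day 3 and day 4. In controls it had 1.43 and 0.659 CPM on day 2, 38.5 and 46.2 CPM on day 3 and 205 and 212 CPM on day 4. In BAPN it had 1.79 and 0 CPM on day 2, 2.15 and 1.67 CPM on day 3, 2.12 and 2.92 CPM after blastula to day 4 and 12.8 and 8.91 CPM after gastrula to day 4. The day 2 groups overlapped, and the groups of the later windows did not. Changes were -4.46 ± 0.44 after gastrula to day 3 (edgeR quasi-likelihood adjusted p = 1.06e-06) and -6.36 ± 0.45 after blastula to day 4 (adjusted p = 1.09e-08).

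LOC119740515, the other abundant alpha-3-like gene, was lower in BAPN on days 2 and 3 and was not called on day 4, where its groups overlapped for the blastula start only. It had 15.2 and 14.5 CPM after blastula to day 2 against 101 and 47.3 CPM in controls (-2.32 ± 0.30, edgeR quasi-likelihood adjusted p = 3.03e-05). It had 71.9 and 70.7 CPM after gastrula to day 3 against 181 and 191 CPM (-1.38 ± 0.27, adjusted p = 0.00135). After blastula to day 4 it had 181 and 127 CPM against 170 and 178 CPM, and the groups overlapped (-0.18 ± 0.27, adjusted p = 0.605). The effects of BAPN from blastula on day 4 and day 2 differed by 2.14 ± 0.40 (adjusted p = 0.00138). After gastrula to day 4 it had 151 and 107 CPM (-0.43 ± 0.27, adjusted p = 0.215), called when genes were not filtered or only the groups compared were fitted, and without either day 2 control. This gene alone made up 63.9% of the summed channel level after blastula to day 4. Without it, the sum there was 7.01% of controls in place of 17.0%.

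The beta-4-like LOC119730479 was lower in both windows from blastula, by less on day 4. It had 3.15 and 0.709 CPM after blastula to day 2 against 51.6 and 38.2 CPM, and 33.4 and 26.9 CPM after blastula to day 4 against 123 and 122 CPM. The changes were -4.48 ± 0.34 and -2.03 ± 0.26, and their difference was 2.45 ± 0.44 (edgeR quasi-likelihood adjusted p = 0.000375). Alpha-3 and beta-4 subunits join in receptors of autonomic ganglia in vertebrates. LOC119740634, the pseudogene next to LOC119740515, had 8.88 and 3.48 CPM after blastula to day 4 against 8.77 and 8.40 CPM, so its groups overlapped as well, and reads shared with LOC119740515 cannot be told apart here.

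Several genes with low levels were called lower through groups with few or no counts. LOC119741162 (alpha-7-like) had 53 and 70 counts in the day 4 controls and none after either BAPN window to day 4, at least 39.7-fold lower after gastrula to day 4. For the mean effect it was lower in 5 of 6 pairs (edgeR quasi-likelihood adjusted p = 7.81e-05). LOC119730134 (alpha-3-like) had 36 and 59 counts in the day 4 controls and none after blastula to day 4, and was lower in 4 pairs and higher in 1 (adjusted p = 0.00118). Both of these calls were lost without the day 2 control named for the 1.2 mM library. The beta-like LOC119734458 had 23 and 10 counts in the day 2 controls and LOC119734623 had 3 and 33, and both had none after blastula to day 2, at least 10.4-fold and 12.1-fold lower. These day 2 calls were each lost without either treated library or without 1 control, the one named for 1.2 mM for LOC119734458 and the one named for 0.8 mM for LOC119734623. Both were also lost with the named pairs as a block and when only the groups compared were fitted. For LOC119734458 the mean effect was also lost without the day 4 control named for 0.8 mM. LOC119734623 lies within LOC119734624 on the same strand, which had no count in any library, and how reads were shared between them is not known.

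LOC119741915, LOC119735898 and LOC119741673, which had 0 to 2 counts in each day 2 control, had few or no counts in BAPN on day 3 and day 4. For LOC119735898 the day 3 controls had only 2 and 1 counts, so a fall on day 3 could hardly be seen. Not all genes first counted in both day 3 controls had so few counts in BAPN on day 3. LOC119730135 had 77 and 66 counts after gastrula to day 3 against 147 and 109 in controls, and LOC119741848 had 97 and 71 against 120 and 102. After blastula to day 4 both were low, with 8 and 1 counts against 357 and 404 for LOC119730135 and 0 and 32 against 391 and 338 for LOC119741848. After gastrula to day 4 they had 87 and 107 and 35 and 26 counts. LOC119741915 had 478 and 516 counts in the day 4 controls and none after blastula to day 4, at least 286-fold lower. LOC119735898 had none there or after gastrula to day 4, at least 48.7-fold and 54.5-fold lower than its 73 and 96 control counts. LOC119741673 had none after gastrula to day 3, at least 25.6-fold lower. On day 2 LOC119741915 had 5 and 6 counts in BAPN and none in controls, at least 3.87-fold higher, a call lost when only the groups compared were fitted. LOC119735898 overlaps LOC119735899 on the same strand, so its reads may be shared.

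A single gene, LOC119740260 (alpha-6-like), was higher in BAPN on average. Its counts were 9 and 6 after blastula to day 2 against 0 and 0, 10 and 6 after gastrula to day 3 against 4 and 3, 14 and 28 after blastula to day 4 against 1 and 1, and 26 and 17 after gastrula to day 4. It was higher in 6 of 6 pairs (edgeR quasi-likelihood adjusted p = 0.00181 for the mean effect) and changed by 4.43 ± 1.58 after blastula to day 4 (adjusted p = 0.0237). It was at least 5.15-fold higher after blastula to day 2. The mean effect held without any 1 library. The calls of single windows were each lost without any 1 of 3 libraries: the day 2 window without the 1.2 mM library or either control, blastula to day 4 without the 0.8 mM library or either control, and gastrula to day 4 without the 1.2 mM library or either control. The calls of both windows from blastula were also lost with the named pairs as a block, and that of day 2 when only the groups compared were fitted.

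**Figure D3:**
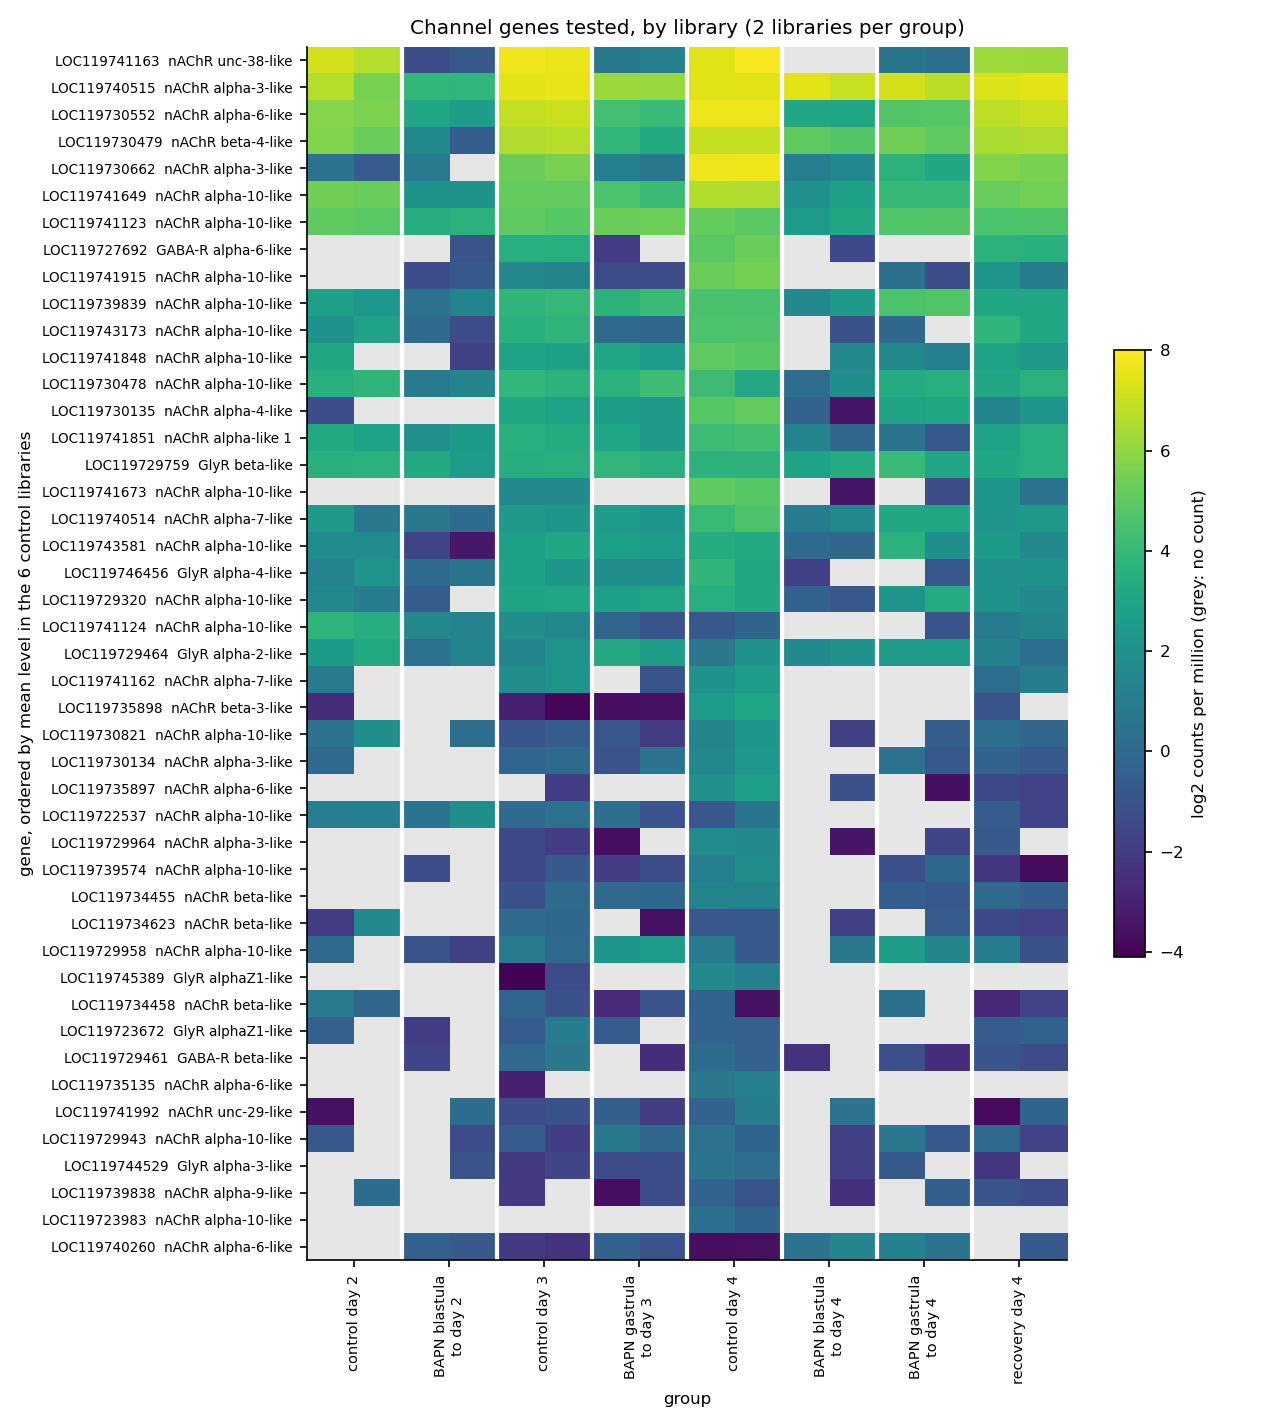
Level (log2 CPM, colour) of the 45 tested genes in each of the 16 libraries, with genes ordered by their mean level in the 6 controls. Grey marks a library with no count. After BAPN from blastula to day 4, 25 of all 61 genes had no count in either library, against 5 in the day 4 controls.

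The glycine receptor genes were mixed. LOC119729759, beta-like, was not called in any window, with 6.07 to 14.8 CPM in the 6 paired treated libraries and 10.8 to 13.4 CPM in controls (-0.33 ± 0.20, edgeR quasi-likelihood adjusted p = 0.152). It was below both controls on day 2, at 9.63 and 6.07 CPM against 12.2 and 12.5 CPM. The same held after blastula to day 4, at 7.57 and 10.3 CPM against 13.4 and 13.4 CPM. Its groups overlapped after gastrula to day 3 and gastrula to day 4. With total counts as the only scaling its mean change was -0.56 and was called. LOC119746456, alpha-4-like, was lower in 6 of 6 pairs (-2.78 ± 0.46, adjusted p = 1.85e-05), from 1.11 and 1.52 CPM against 2.45 and 4.52 CPM on day 2 to 0.303 and 0 CPM against 14.1 and 8.66 CPM after blastula to day 4. LOC119729464, alpha-2-like, was lower on day 2, at 1.36 and 2.53 CPM against 5.65 and 9.60 CPM, a call lost without the 1.2 mM library or the control named for 0.8 mM. It stood at 3.23 and 4.23 CPM against 1.64 and 4.29 CPM after blastula to day 4, where the groups overlapped. LOC119723672 (alphaZ1-like) was lower in 5 of 6 pairs (adjusted p = 0.0298), with 0 to 8 counts in the paired treated libraries and 0 to 30 in controls. That call was lost without any 1 of 7 libraries: both after blastula to day 4, the 0.8 mM libraries of the other paired windows, the day 2 control named for 1.2 mM, and the day 3 and day 4 controls named for 0.8 mM. It was also lost with the named pairs as a block. The summed glycine receptor level was 12.4 and 10.6 CPM against 21.1 and 27.8 CPM on day 2, 29.4 and 23.2 CPM against 21.9 and 24.1 CPM on day 3, and 11.1 and 14.95 CPM against 36.3 and 31.1 CPM after blastula to day 4. Only the day 3 groups overlapped.

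Among GABA receptor genes the result rested on LOC119727692. It had 3 and 0 counts after gastrula to day 3 against 186 and 168 in controls (-6.39 ± 0.83, edgeR quasi-likelihood adjusted p = 5.79e-06). It had 0 and 4 counts after blastula to day 4 against 360 and 433 (-7.35 ± 0.80, adjusted p = 3.02e-07), and none after gastrula to day 4, at least 256-fold lower. On day 2 it had 0 and 5 counts in BAPN and none in controls, and the groups overlapped. LOC119729461 had 0 to 4 counts in the paired treated libraries and 0 to 24 in controls, and was not called in any window. LOC119729370 did not pass the filter, with at most 12 counts in a library.

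By window, the number of lower genes was largest after blastula to day 4. The windows also differ in how many genes could fall. Of the 61, 24 had no count in either day 2 control, 7 in either day 3 control and 5 in either day 4 control. Counts of lower genes therefore do not rank the windows by length of exposure. After blastula to day 2, 17 of 45 were lower and 2 higher, where 19.7% of all genes were lower and 21.8% higher. Fitting only the groups compared called 11 lower and none higher there, and that fit called 2637 of all 17519 genes lower and 3110 higher. After gastrula to day 3, 12 were lower and none higher, against 15.1% and 17.1% of all genes. There 1 gene was higher at an unadjusted p under 0.05, and DESeq2 called none. After blastula to day 4, 31 were lower and 1 higher, against 27.3% and 24.4%. After gastrula to day 4, 20 were lower and 1 higher, against 24.2% and 21.9%. With groups at 0 held at the floor, the medians were -1.58, -0.55, -3.49 and -2.07. These leave out genes at or below the floor in both groups, which were 8, 3, 0 and 0 of the 45. The fitted medians of all genes were -0.01, -0.03, -0.10 and -0.08. Of the 45 genes, 6 were lower in all 4 windows, 6 in 3, 14 in 2, 10 in 1 and 9 in none. The 2 windows to day 4 share their controls.

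**Figure D4:**
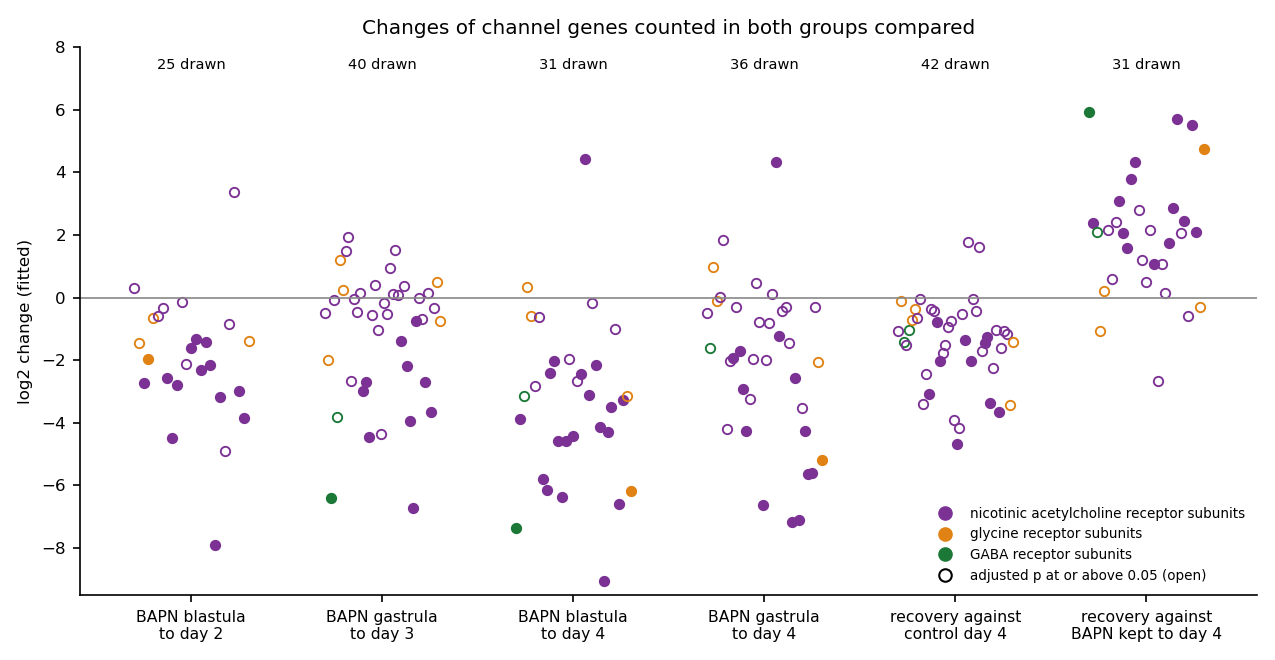
Fitted log2 change of each tested gene in 6 comparisons, drawn only where both groups had counts (25, 40, 31, 36, 42 and 31 genes from left to right). Filled points passed an adjusted p under 0.05, open points did not, and colour gives the class. In the 4 BAPN windows most filled points lie below 0, while all filled points of recovery against BAPN kept lie above it.

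The effect of BAPN from blastula differed between day 4 and day 2 for 14 of the 45 genes: 11 changed further downward and 3 the other way, where 15.4% and 12.1% of all genes did. Among the 11, LOC119741915, LOC119727692 and LOC119739574 had no count in the day 2 controls and LOC119730662 had 17 and 7. A fall on day 2 could hardly be seen for these genes, so their difference does not show an effect that grew. A start at blastula left less channel RNA on day 4 than a start at gastrula for 12 genes and more for none, against 7.84% and 6.31% of all genes. There 1 gene was higher at an unadjusted p under 0.05, and DESeq2 called none. LOC119730135, alpha-4-like, had 0.807 and 0.0940 CPM after the blastula start and 7.89 and 8.91 CPM after the gastrula start (-4.22 ± 0.66, edgeR quasi-likelihood adjusted p = 0.000227), and both were below the 29.2 and 34.6 CPM of controls. LOC119741163 had 0 and 0 counts against 17 and 15, at least 9.56-fold lower, a call lost when only the groups compared were fitted. LOC119741915 had 0 and 0 against 14 and 5, at least 5.77-fold lower, a call lost in the same fit and without the 1.2 mM library of either group.

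In embryos taken out of BAPN on day 2, the summed channel level on day 4 lay between that of embryos kept in BAPN and that of controls. The summed level in recovery was 661 and 705 CPM, 48.2% of the day 4 controls and 2.83 times that of embryos kept in BAPN. Without LOC119740515 these values were 41.3% and 5.89 times. Of the 45 genes, 22 were higher and none lower than in embryos kept in BAPN, where 25.3% of all genes were higher and 23.3% lower. No gene of the 45 was lower there at an unadjusted p under 0.05 or by DESeq2. Against controls 11 were lower and none higher, where 8.65% of all genes were lower and 7.27% higher. Fitting only the groups compared called 29 lower, the 11 among them, and that fit called 2963 of all 17519 genes lower and 2214 higher. None of the 45 was higher than in controls at an unadjusted p under 0.05 in the main fit or by DESeq2. Neuron markers summed to 405 to 467 CPM in recovery against 811 to 851 CPM in controls, and muscle markers to 3622 to 3809 CPM against 4566 to 4746 CPM, with 2 and 3 genes at 0. Their part in the result was not tested.

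Single genes differed in where they stood after removal. LOC119741163 had 984 and 940 counts in recovery and none in embryos kept in BAPN, at least 505-fold higher, but stayed below controls (73.9 and 73.5 CPM against 170 and 237 CPM, -1.47 ± 0.18, edgeR quasi-likelihood adjusted p = 5.09e-06). LOC119730552 reached 110 and 130 CPM, also below controls (-0.79 ± 0.15, adjusted p = 0.000498). LOC119740515, at 158 and 182 CPM, overlapped its controls (-0.04 ± 0.27, adjusted p = 0.961). LOC119730479, at 88.4 and 93.9 CPM, lay below both controls without being called (adjusted p = 0.292). LOC119727692 had 172 and 152 counts, or 12.9 and 11.9 CPM, below the 29.5 and 37.1 CPM of the day 4 controls (adjusted p = 0.073) and above embryos kept in BAPN (5.93 ± 0.80, adjusted p = 5.10e-06).

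LOC119741915, LOC119735898 and LOC119745389 were low in recovery. LOC119741915 had 4.58 and 1.95 CPM in recovery against 39.2 and 44.2 CPM in controls (-3.67 ± 0.50, edgeR quasi-likelihood adjusted p = 2.96e-05) and was at least 22.4-fold above embryos kept in BAPN. LOC119735898 had 7 and 0 counts against 73 and 96 (-4.69 ± 1.47, adjusted p = 0.0358), a call lost without any 1 of 6 libraries: the 4 controls of day 3 and day 4, the 0.8 mM library of gastrula to day 3 and the 1.2 mM recovery library. LOC119745389, a glycine receptor gene (alphaZ1-like), had no count in recovery or in any library collected in BAPN against 38 and 26 in the day 4 controls. It was at least 23.2-fold lower in recovery, a call lost in DESeq2 and without any 1 recovery or day 4 control library. LOC119741124, the early alpha-10-like gene, had 24 and 34 counts in recovery against none in embryos kept in BAPN (at least 15.3-fold) and 7 and 10 in controls.

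No dose difference was called among these genes. Over the 10 treated libraries, none of the 45 was called higher or lower at 1.2 mM than at 0.8 mM, where 0.0228% of all genes were higher and 0% lower. At an unadjusted p under 0.05, 2 were higher and none lower, and DESeq2 called none. For LOC119730552 the mean change was -3.23 in the 1.2 mM pairs and -3.46 in the 0.8 mM pairs, on the log2 scale with a prior count of 2 and no test. For LOC119730479 these values were -2.83 and -3.64, and for LOC119740515, in the other order of size, -1.34 and -1.18.

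Some channel genes were counted in 1 library of a group and absent from the other. Where 1 library of a group had at least 10 counts of a gene, the other had none in 18 of 227 cases for the channel genes (7.93%, 15 genes) and in 2865 of 124801 cases for the rest (2.30%). These shares describe the libraries and were not matched on level. The widest case was LOC119741848 (alpha-10-like) with 104 and 0 counts in the day 2 controls.

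Many of these genes sit side by side in the genome. With gaps of up to 100 kb between neighbours, 48 of the 61 genes form 15 runs on Pmin_3.0 scaffolds. The run with the most genes, on NW_024037072.1 from 36863451 to 36979768, holds 7 genes, 4 of them tested. It includes LOC119741163, LOC119741162 and LOC119741851, all lower for the mean effect, and LOC119740260, the 1 gene that was higher. A run of 6 on NW_024037066.1 (7089841 to 7139904) had 2 of 3 tested genes lower, a run of 5 on NW_024037072.1 (16454694 to 16514777) had 4 of 5 lower, and a run of 4 on NW_024037061.1 (14437953 to 14549214) had 3 of 4 lower. The last holds LOC119730479, LOC119730552 and LOC119730662. Neighbours of like sequence can share reads, so values of single copies are uncertain.

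**Figure D5:**
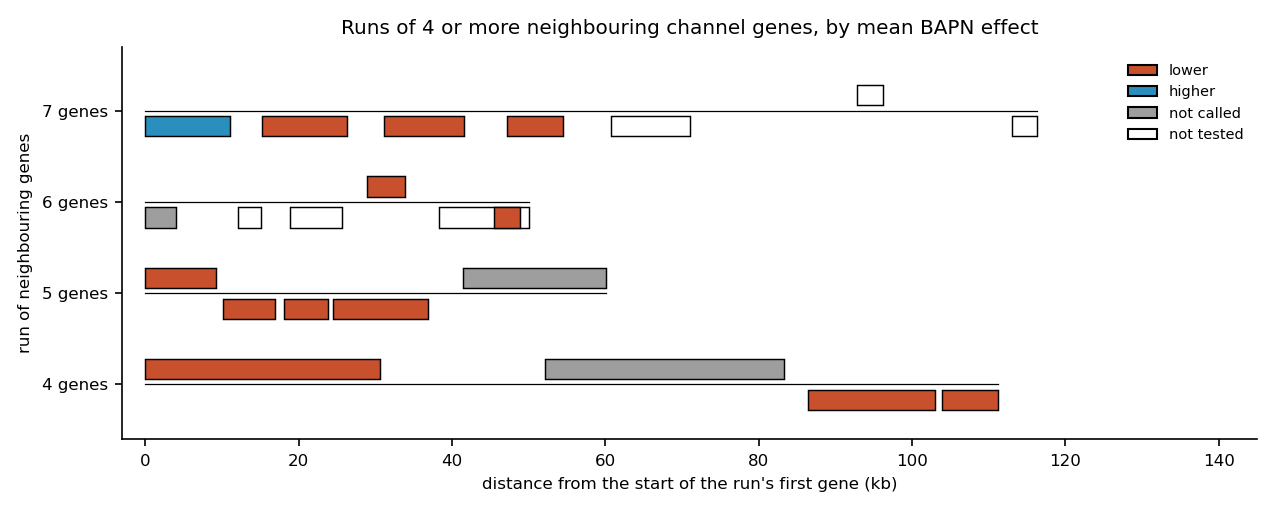
The 4 runs of 4 or more neighbouring channel genes, drawn to scale as distance from the start of the first gene (kb), with plus-strand genes above the line and minus-strand genes below. Colour gives the call for the mean BAPN effect (lower, higher or not called; white was not tested). In the run of 7 genes the 1 higher gene lies next to 3 lower ones.

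Genes that make, move or break down the same transmitters were lower more often than higher for the mean effect, with rises among them. For acetylcholine, 20 of 31 tested genes were lower and 4 higher, against 30.1% and 28.1% of all genes. They include LOC119746245 (cholinesterase 1-like; cholinesterases split choline esters) at -3.93 ± 0.55 (edgeR quasi-likelihood adjusted p = 3.96e-06), LOC119720772 (cholinesterase 1-like), lower in 6 of 6 pairs, and LOC119724235 (cholinesterase 2-like), higher in 5 of 6. The 48 acetylcholine genes summed to 452 to 484 CPM on day 2, above the 413 to 418 CPM of controls. They summed to 415 to 428 CPM against 551 to 584 CPM on day 3 and 277 to 368 CPM against 1021 to 1128 CPM after blastula to day 4. For GABA and glycine, 14 of 27 were lower and 6 higher. The 29 genes of that list summed above controls on day 2 (2713 to 3073 against 1619 to 1711 CPM) and day 3 (2355 to 2914 against 1951 to 2001 CPM). After blastula to day 4 they summed to 2143 to 2151 against 2508 to 2660 CPM. A glycine transporter 1-like gene, LOC119720522, rose by 5.58 ± 0.38 (adjusted p = 9.45e-11), from 0.461 to 20.7 CPM on average, while another, LOC119728756, and the GABA transporter LOC119719817 were lower in 6 of 6 pairs. For serotonin, 5 of 8 were lower and 1 higher, tryptophan 5-hydroxylase (LOC119740445), the first enzyme of serotonin synthesis, at 2.12 ± 0.14 (adjusted p = 1.23e-11). The vesicular amine transporters LOC119739950 (-2.77 ± 0.23) and LOC119743498 (no count in any paired treated library) were lower.

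Glutamate genes and receptors of other kinds were mixed, beside 30.1% lower and 28.1% higher among all genes. Of 4 glutamate transport genes 2 were lower, the uptake carriers LOC119722877 (-4.29 ± 0.15) and LOC119738325 (-0.66 ± 0.19), and 2 higher, among them the vesicular transporter LOC119726821 (1.77 ± 0.17), which was higher in 4 of 6 pairs. Of 8 ionotropic glutamate receptor genes, which belong to another channel family, 2 were lower and 2 higher. Kainate 2-like LOC119726277 rose by 4.43 ± 0.36, kainate 1-like LOC119730480 fell by 3.68 ± 0.23 with 4 of 6 pairs lower, and kainate 2-like LOC119730689 was lower in 5 of 6 pairs. Of 44 tested G protein-coupled receptors for the same transmitters, 17 were lower and 5 higher. LOC119740052 and LOC119734234 (both muscarinic M5-like) and LOC119740008 (metabotropic glutamate 4-like) were lower in 5, 5 and 4 of 6 pairs, each with control means under 1 CPM. Of 10 assembly and anchoring genes 3 were lower and 3 higher. Gephyrin-like LOC119740479, which anchors glycine receptors in vertebrates, was lower (-0.85 ± 0.18), while agrin-like LOC119732644 (0.85 ± 0.09) and the muscle kinase-like LOC119740254 (6 of 6 pairs), which in vertebrates act in clustering of muscle nicotinic receptors, were higher.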

How the data were processed

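Per the labels and the series' design text, polyA libraries from pools of embryos were sequenced paired-end and stranded. The deposited table holds raw counts by gene and library, 16 libraries in all. For aligner, counting program, strand setting and filters, the sources used here name none. Gene positions in the deposited table equal those of Pmin_3.0 for all 27818 genes, and the gene length in that table was used for CPM per kb. Members and gene lists were chosen with earlier results of these data known. Members were found by product name. Related and marker lists were found the same way, and some wrong matches were removed after their product names were seen.

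Counts were fitted in edgeR 4.0.16 (R 4.3.3, limma 3.58.1) with TMM scaling, edgeR's expression filter (minimum count 10, minimum total 15; 17519 genes kept, 10299 removed), 1 mean per group, robust quasi-likelihood dispersions and 8 residual degrees of freedom, and the method was tested on simulated data. The SE is the change divided by the square root of F. The text names, per class, the 3 genes of highest control level, up to 5 called in each direction for the mean effect and up to 3 in each direction for other comparisons. LOC119730662, LOC119741649, LOC119743173, LOC119741848, LOC119741851, LOC119722537, LOC119740634 and the markers LOC119737432, LOC119744397, LOC119745877 and LOC119741455 were added after their values were seen. Alternatives were RLE size factors, total counts, no filter, DESeq2 1.42.0, only the groups compared, a replicate block of named pairs, single doses and each library left out. Named pairs did not deviate together (correlations 0.0131, -0.00653 and 0.0226), so no block is in the model.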

Additional observations from a re-analysis of the deposited data

Results flagged for a closer look

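The effect of BAPN from blastula differed between day 4 and day 2 for 14 channel genes, by a test of the difference itself in the edgeR quasi-likelihood fit. A negative value means a larger fall, or smaller rise, on day 4. Where day 2 controls had few or no counts, a fall on day 2 could hardly be seen. This holds for LOC119741915, LOC119727692 and LOC119739574, with no count there, and for LOC119730662, with 17 and 7.

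For 9 genes with counts in all 4 groups the difference is given on the log2 scale. It was 2.14 for LOC119740515, 2.45 for LOC119730479 and 2.31 for LOC119729464, and it was -1.77 for LOC119730552, -2.65 for LOC119741851, -3.60 for LOC119743173, -4.77 for LOC119746456, -6.21 for LOC119730662 and -0.95 for LOC119741649. LOC119730662 rested on 1 library: without the 1.2 mM library of blastula to day 2, which had 21 counts where the other had 0, the difference was 0.34. The call of LOC119741649 was lost without any 1 of 11 libraries, that of LOC119729464 without any 1 of 6 and that of LOC119743173 without any 1 of 5. Fitting only the groups compared also ended those of LOC119741649 and LOC119729464.

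For 5 genes with no count in at least 1 of the 4 groups only the adjusted p is given. It was 0.00167 for LOC119741163, 6.81e-07 for LOC119741915, 0.000578 for LOC119727692, 0.00623 for LOC119739574 and 0.0274 for LOC119722537. The calls of LOC119727692 and LOC119739574 were each lost without 1 library of blastula to day 2, the 0.8 mM and the 1.2 mM one. The call of LOC119722537 was lost without any 1 of 4 libraries and when only the groups compared were fitted. LOC119722537, alpha-10-like, had 17 and 38 counts after blastula to day 2 against 25 and 23 in controls, and 0 and 0 after blastula to day 4 against 7 and 18.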

How the results depend on the processing

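Of 2532 values of single genes under other settings, 2528 kept their direction. Most of these values come from fits without 1 library, often a library outside the groups compared, which could hardly change a direction. The results were also chosen mostly because they were called. The count is therefore no measure of how firm the results are. LOC119740515 ran from -0.45 to 0.057 after blastula to day 4 with either treated library left out, the positive value being without the 0.8 mM one. In recovery against controls it ran from -0.13 to 0.067 with either recovery library left out, positive without the 0.8 mM one, and was 0.065 with total counts. The day 4 minus day 2 difference of LOC119730662 ran from -7.05 to 0.34 with either library of blastula to day 2 left out, positive without the 1.2 mM one. The causes were not tested.

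Fitting only the groups compared, which pools the spread over fewer libraries, called 11 genes after blastula to day 2, 29 for recovery against control and 25 for control day 4 against day 3, in place of 19, 11 and 9. Over all genes these fits called 5747, 5177 and 5862, in place of 7264, 2789 and 2407. RLE size factors, total counts, no filter and DESeq2 kept every count of called genes within 1.5 times. Total counts moved the median of all genes for the mean effect from -0.07 to -0.29, with 3830 genes higher and 6656 lower in place of 4926 and 5281.

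Leaving out 1 library gave 7 to 14 genes for control day 3 against day 2, 5 to 11 for control day 4 against day 3 and 9 to 14 for the day 4 minus day 2 difference. The low value of the last was without the 1.2 mM library of blastula to day 2. It gave 21 to 27 for the mean effect, 14 to 21, 10 to 12, 26 to 34 and 15 to 26 for the 4 windows in the order of the text, 8 to 15 and 17 to 25 for recovery against control and against BAPN kept, 8 to 14 for the blastula against the gastrula start and 0 for dose. A lone library left in a group was assumed to vary like the others.

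With the replicate block of named pairs, 25 genes were called for the mean effect, 14, 12 and 29 for the 3 paired windows and 11 for the day 4 minus day 2 difference. It ended the calls of LOC119723672 for the mean effect, of LOC119740260, LOC119734623 and LOC119734458 for blastula to day 2, of LOC119740260 for blastula to day 4, and of LOC119729464, LOC119741649 and LOC119722537 for the difference. The labels name the pairs but not a shared culture, and their correlations were near 0. The other comparisons have no named pairs and no such fit.

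The summed level of the genes, as a ratio of the first group to the second, moved by more than its spread with total counts to 0.276 for gastrula to day 3, 0.148 for blastula to day 4, 0.519 for recovery against control, 3.51 for recovery against BAPN kept and 1.45 for control day 4 against day 3. Without LOC119740515, chosen after seeing the data, it was 0.304, 0.0701, 0.413, 5.89 and 1.82 in the same order, 0.182 for gastrula to day 4 and 0.385 for the blastula against the gastrula start. Leaving out 1 library gave ratios of 0.143 to 0.189, 0.312 to 0.330, 0.157 to 0.183 and 0.226 to 0.276 for the 4 windows, 0.466 to 0.497 and 2.63 to 3.07 for recovery, 1.65 to 2.19 and 1.58 to 1.68 for the control days and 0.616 to 0.753 for the starts.

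With 2 libraries of 2 doses per group, small changes and genes of a few counts cannot be settled.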
